A study of Saccharomyces cerevisiae with 2 samples.

Results

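The genes described here are the 10 that build, branch and break down glycogen in budding yeast or that bring a phosphatase to glycogen. They were taken by name from the mRNA rows of the deposited table, and all 10 were found among 5995 mRNA features. RNA-seq had been done on the haploid laboratory strain BY4741 (WT) and on its derivative without Cdc55p (cdc55Δ), the B55 regulatory subunit of protein phosphatase 2A. Both strains had been held for 6 h at 30 °C without shaking in YPD20, a rich medium with 20% glucose that serves as a fermentation model. BY4741 is of mating type a and lacks working HIS3, LEU2, MET17 and URA3 genes, and the cdc55Δ strain carries these changes too. With 1 library per strain there was no replicate error, so no test between strains is reported here. Every difference is one between these libraries. The authors themselves called differentially expressed genes between the strains with edgeR.

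Glycogen is a branched polymer of glucose that yeast stores in the cytoplasm, mainly as growth slows. Glycogenin makes a short primer on itself, glycogen synthase lengthens it with glucose from UDP-glucose, and the branching enzyme moves short chains to form branch points. Phosphorylase releases glucose-1-phosphate from chain ends, and the debranching enzyme removes the branch points at which phosphorylase stops. Glycogen synthase is inactive when phosphorylated, and the phosphatase Glc7p, held at glycogen by targeting subunits, activates it.

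The deposited counts summed to 33233285 in WT and 30133454 in cdc55Δ. The 10 genes held 5449 of the WT counts, a share of 0.0164% (95% Clopper-Pearson interval 0.0160% to 0.0168%), and 10719 of the cdc55Δ counts, a share of 0.0356% (0.0349% to 0.0363%). All intervals given here cover counting error only, and PCR copies are not independent molecules. CDC55 had 2614 counts in WT and 1 in cdc55Δ, at least 775-fold lower against a floor of 3 counts after scaling. LEU2, MET17 and URA3 had 0 to 2 counts in either library, whereas HIS3, only part of which is deleted in BY4741, had 1624 and 1275. The a-cell genes MFA1, MFA2 and STE2 had 545 to 24905 counts, against 7 to 82 for the alpha-cell genes MF(ALPHA)1, MF(ALPHA)2 and STE3.

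Genes of storage carbohydrate metabolism are known targets of the stress factors Msn2p and Msn4p, which bind the stress response element (STRE), read here as AGGGG or, on the other strand, CCCCT. The study follows these factors, so the stretches before the start codon that hold the STREs of GPH1, GLC3 and GSY2 are shown first. These are the genes with an STRE that were at least 2-fold higher in cdc55Δ. GSY1, GLG2 and PIG2, which have as many STREs as GSY2, are not shown. The stretches were read 5′ to 3′ on the strand of the gene from the R64 assembly of S288C. Capitals mark the STREs, 3 for GPH1 (chrXVI:860756-860989, plus strand), 3 for GLC3 (chrV:132741-132916, plus strand) and 2 for GSY2 (chrXII:660334-660529, plus strand). The last line is the site before GAC1 (chrXV:670662-670679, minus strand), with capitals on a match to the post-diauxic shift element (PDS), read as TNAGGGAT on both strands, through which Gis1p acts.
GPH1: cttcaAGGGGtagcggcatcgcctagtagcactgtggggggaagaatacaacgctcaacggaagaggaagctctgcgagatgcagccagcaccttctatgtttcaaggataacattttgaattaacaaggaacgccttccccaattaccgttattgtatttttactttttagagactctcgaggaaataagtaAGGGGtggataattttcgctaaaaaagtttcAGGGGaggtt
GLC3: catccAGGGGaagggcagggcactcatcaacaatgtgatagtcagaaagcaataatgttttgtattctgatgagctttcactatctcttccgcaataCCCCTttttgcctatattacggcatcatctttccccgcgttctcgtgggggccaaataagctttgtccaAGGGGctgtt
GSY2: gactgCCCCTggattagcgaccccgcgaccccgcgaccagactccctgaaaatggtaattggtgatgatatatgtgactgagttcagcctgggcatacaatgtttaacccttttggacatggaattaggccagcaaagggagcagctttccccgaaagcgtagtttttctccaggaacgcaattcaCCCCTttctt
GAC1: ttataTAAGGGATtgcta

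Of the 10 genes, 9 had a log2 fold change of cdc55Δ over WT above 0, against 50.7% of the 5548 mRNA features whose mean over both libraries reached 50 normalized counts. The counting interval lay above 0 for 8 of them, held 0 for PIG2 and lay below 0 for PIG1. Of the 5548 mRNA features, 1752 had an interval above 0 and 1556 one below 0, so an interval clear of 0 was common. GPH1, GLC3, GAC1 and GSY2 were higher by at least 2-fold and none was lower by that much. All 10 genes passed the minimum of 50, but GAC1, at 25.5 normalized counts in WT and 84.8 in cdc55Δ, passed it only through the library where it was high, and without it 3 genes were higher by that much. Of the mRNA features that passed it, 1.87% were higher and 1.05% lower by at least 2-fold. At a threshold of 1.5-fold, 7 of the 10, GAC1 among them, were higher and PIG1 was lower, against 5.06% and 2.69% of the mRNA features. The median of the log2 fold changes was 0.89 over the 10 genes and 0.00 over the mRNA features. These log2 fold changes were computed from the counts after TMM scaling, with 0.5 added to each count, and the interval beside each is a 95% Clopper-Pearson interval. In a bulk culture, more mRNA in every cell and more cells that express a gene cannot be told apart.

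**Figure D1:**
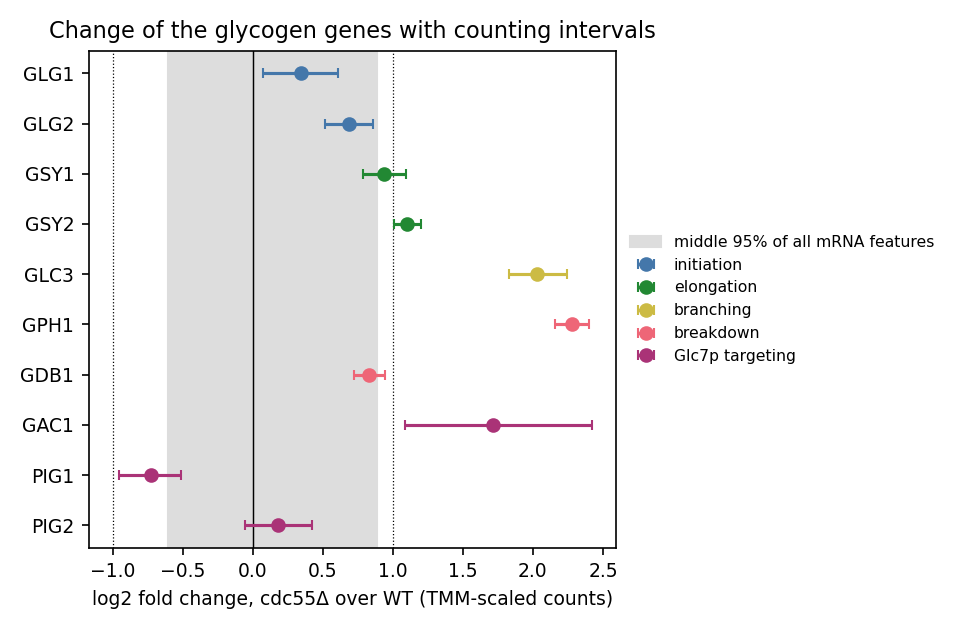
Log2 fold change of cdc55Δ over WT (x axis, TMM-scaled counts) for each of the 10 glycogen genes, coloured by role, with 95% counting intervals as bars. A grey band marks the middle 95% of the mRNA features that passed the minimum of 50 (-0.61 to 0.88), and dotted lines mark 2-fold. GPH1 (2.28), GLC3 (2.03), GAC1 (1.72) and GSY2 (1.10) lie beyond 2-fold, GSY1 (0.94) lies between the band and that line, and PIG1 (-0.73) is the one gene below 0.

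The synthesis of glycogen starts on the glycogenins, which GLG1 and GLG2 encode. GLG2 (YJL137C, minus strand of chromosome X from 154985 to 156127) was read 485 times in WT and 695 times in cdc55Δ. After scaling it was 1.61-fold higher, a log2 fold change of 0.69 (0.52 to 0.86). GLG1 (YKR058W, plus strand of chromosome XI from 552770 to 554620) had 220 and 248 counts, a log2 fold change of 0.34 (0.07 to 0.61). GLG2 was thus the more abundant glycogenin mRNA in both strains, at a deposited RPKM of 12.8 in WT and 20.2 in cdc55Δ, where GLG1 was at 3.58 and 4.45. GLG1 gave 21.9% of the reads per kilobase of the pair in WT (19.2% to 24.8%) and 18.1% in cdc55Δ (16.0% to 20.3%), and these intervals overlap. The ratio of GLG2 to GLG1 counts was 1.27 times as large in cdc55Δ, with an interval of 1.02 to 1.58 that lies close to no difference. The proteins, translated from R64, share 48.9% of 378 aligned residues. Both genes stand between a gene for ribosomal protein S21 and one for translation factor eIF4A: GLG1 between RPS21A and TIF1, and GLG2 between RPS21B and TIF2, with the small reading frame YJL136W-A also between GLG2 and RPS21B.

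The glycogen synthases, which make up the chain, were both higher in cdc55Δ. GSY2 (YLR258W, plus strand of chromosome XII from 660716 to 662833) was read 1371 times in WT and 2623 times in cdc55Δ, 2.15-fold higher after scaling, a log2 fold change of 1.10 (1.01 to 1.20). GSY1 (YFR015C, minus strand of chromosome VI from 174265 to 176391) had 550 and 939 counts, 1.92-fold higher, a log2 fold change of 0.94 (0.79 to 1.09). GSY2 therefore stood just inside the 2-fold threshold and GSY1 just outside it, and their intervals overlap. GSY2 held 71.5% of the synthase reads per kilobase in WT (69.4% to 73.5%) and 73.7% in cdc55Δ (72.2% to 75.2%), so the balance between the isozymes differed by no more than counting error. The enzymes share 82.0% of 704 aligned residues, but their coding sequences have no identical run longer than 20 bases.

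GLC3 (YEL011W, plus strand of chromosome V from 133120 to 135234), which encodes the only branching enzyme, had 248 counts in WT and 904 in cdc55Δ. It was 4.09-fold higher after scaling, a log2 fold change of 2.03 (1.83 to 2.24), and ranked 14 among the 5548 mRNA features. Its deposited RPKM was 3.53 in WT and 14.2 in cdc55Δ. In WT that was below the level of GSY1, at 7.78, whereas in cdc55Δ GLC3 and GSY1, at 14.7, did not differ beyond counting error.

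Of the genes of breakdown, GPH1 differed more than GDB1. GPH1 (YPR160W, plus strand of chromosome XVI from 861306 to 864014) encodes glycogen phosphorylase, and had 686 counts in WT and 2961 in cdc55Δ. It was 4.85-fold higher after scaling, a log2 fold change of 2.28 (2.16 to 2.40), rank 7 of the mRNA features. GDB1 (YPR184W, plus strand of the same chromosome from 902044 to 906654) encodes the debranching enzyme, which has a transferase and a glucosidase activity in 1 chain. It had 1078 and 1709 counts, 1.78-fold higher, a log2 fold change of 0.83 (0.72 to 0.94). Per length the mRNAs were at near equal levels in WT, with a deposited RPKM of 7.62 for GPH1 and 7.03 for GDB1. In cdc55Δ they stood at 36.3 and 12.3. The ratio of GPH1 to GDB1 counts was 2.72 times as large in cdc55Δ (2.43 to 3.05), a value that no scaling of the libraries changes.

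The genes for subunits that bind Glc7p went different ways. GAC1 (YOR178C, minus strand of chromosome XV from 667860 to 670241), which encodes the main subunit that directs Glc7p to glycogen synthase, had 27 counts in WT against 80 in cdc55Δ. It was 3.29-fold higher after scaling, but with so few counts the interval of its log2 fold change of 1.72 ran from 1.09 to 2.42. PIG1 (YLR273C, minus strand of chromosome XII from 689083 to 691029), a relative of GAC1 whose product binds Gsy2p, had 489 and 262 counts. It was 1.66-fold lower in cdc55Δ, a log2 fold change of -0.73 (-0.95 to -0.51), at rank 98 from the lowest of the 5548 mRNA features. PIG2 (YIL045W, plus strand of chromosome IX from 271161 to 272777), which encodes a putative targeting subunit, had 295 and 298 counts, a log2 fold change of 0.18 (-0.05 to 0.42) whose interval holds 0. PIG2 is the one gene of the 10 whose counting interval held 0. For the others, an interval clear of 0 does not settle the direction between strains, since it covers counting error only.

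The ratio of GAC1 to PIG1 counts was 5.53 times as large in cdc55Δ (3.49 to 8.77). Gac1p and Pig1p share 34.5% of 608 aligned residues. Each has 1 match to the phosphatase docking motif of the RVxF kind (lysine or arginine, at most 1 residue, valine or isoleucine, a residue other than proline, phenylalanine or tryptophan), starting at residue 69 of Gac1p and residue 53 of Pig1p. Pig2p has 2 matches, starting at residues 195 and 415. The share of all proteins with such a match was not computed, and docking was not measured. PIG1 was the more abundant mRNA in both strains, at a deposited RPKM of 7.56 in WT and 4.47 in cdc55Δ, where GAC1 was at 0.341 and 1.11. The mean of GAC1, 55.1 normalized counts, lay just above the minimum of 50, which a gene at its WT level in both libraries would not have passed.

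**Figure D2:**
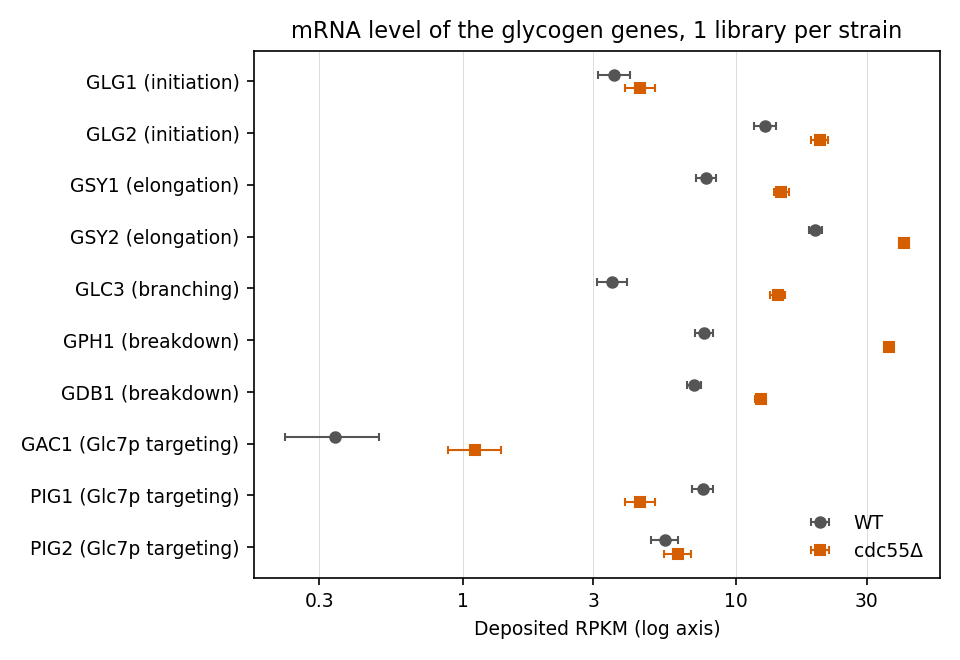
Deposited RPKM (x axis, log scale) of each glycogen gene in WT (grey circles) and cdc55Δ (orange squares), with 95% Poisson intervals of the counts as bars, which are hidden by the symbol where narrow. GSY2 is highest in both strains (19.5 and 41.1), GAC1 is lowest (0.341 and 1.11), and PIG1 is the one gene whose cdc55Δ symbol lies left of its WT symbol.

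The order of the levels was compared by deposited RPKM, which is per length and scaled to the library total. In WT, GSY2 stood at 19.5 and GLG2 at 12.8, each apart from its neighbours. GSY1, GPH1, PIG1 and GDB1 followed between 7.78 and 7.03, and neighbours in this group did not differ beyond counting error. PIG2 was at 5.49, GLG1 and GLC3 were at 3.58 and 3.53 and could not be ordered, and GAC1 came last. In cdc55Δ, GSY2 was again highest at 41.1, and GPH1 was second at 36.3 where it had been at position 4 in WT. GLC3 moved from position 9 to position 5, and PIG1 from position 5 to position 8, level with GLG1 within counting error. The RPKM of GPH1 was 0.391 times that of GSY2 in WT and 0.883 times in cdc55Δ, a ratio of counts 2.26 times as large (2.03 to 2.51).

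Summed by role, the deposited RPKM was 16.3 in WT and 24.6 in cdc55Δ over the glycogenins, and 27.3 and 55.7 over the synthases. It was 14.7 and 48.6 over the breakdown genes, and 13.4 and 11.7 over the targeting subunits, where the lower PIG1 outweighed the higher GAC1. Over branching, which is GLC3 alone, it was 3.53 and 14.2, a ratio of 4.02. That was the largest ratio of the roles, against 3.31 for the breakdown genes and 2.05 for the synthases. The breakdown genes gained more RPKM than the synthases alone, and GPH1 made up the larger part of that gain. Of the 45 pairs of genes, 7 had a ratio of counts whose counting interval held no difference between the libraries. These were GSY2 with GSY1, GSY1 with GDB1, GLG2 with GDB1, GLG1 with PIG2, and GAC1 with each of GSY2, GLC3 and GPH1. GPH1 and GLC3 came close to each other, with a ratio 1.18 times as large in cdc55Δ (1.01 to 1.39).

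**Figure D3:**
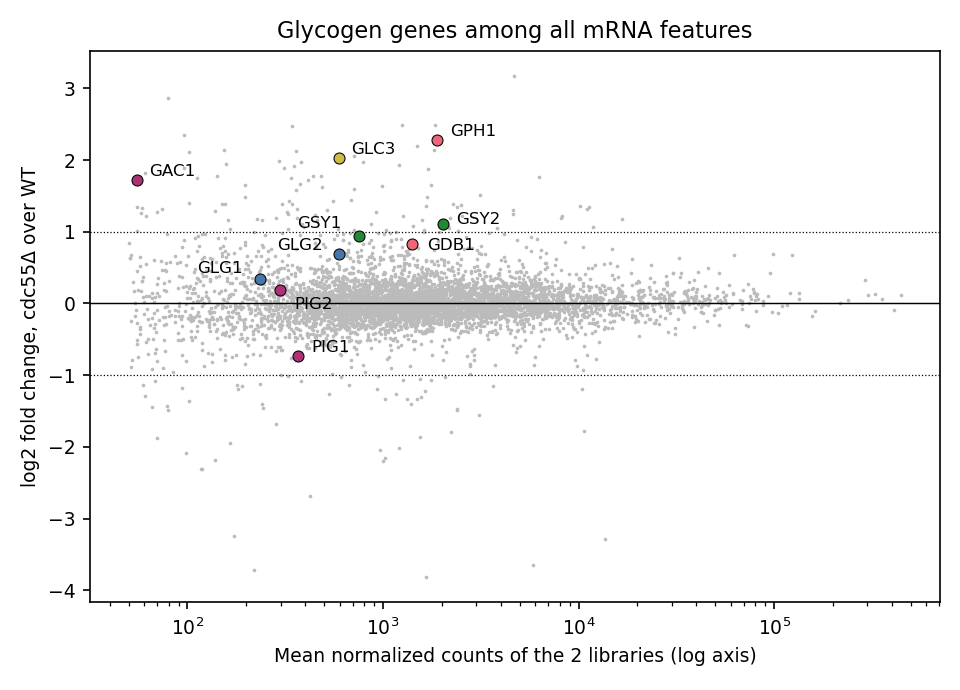
Log2 fold change of cdc55Δ over WT (y axis) against the mean normalized counts of both libraries (x axis, log scale) for the mRNA features that passed the minimum of 50 (grey points, CDC55 left out) and the 10 glycogen genes (coloured by role as in the plot of changes). GPH1 (rank 7), GLC3 (rank 14) and GAC1 (rank 32) lie at the upper edge of the cloud, and GAC1 is at its left end with 55.1 normalized counts, past the minimum only through cdc55Δ.

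The 10 genes were compared by the STREs in the 600 bases before the start codon. At least 1 STRE stood before 7 of them, against 39.7% of 5977 such windows in the genome, and at least 2 before 6 of them, against 10.7%. GPH1 and GLC3, with the largest log2 fold changes of the 10, had 3 STREs each, where 2.44% of the windows had 3 or more. GSY2 and GSY1 had 2 each and GDB1 had 1. GLG2 and PIG2 also had 2 each, although their log2 fold changes were 0.69 and 0.18. GLG2 lies only 41 bases from the reading frame YJL136W-A, and its nearer STRE, 103 bases before the start codon, falls inside that frame. GLG1, PIG1 and GAC1 had none, and of these GAC1 was more than 3-fold higher. GAC1 was the only one of the 10 with a PDS match, 426 bases before its start codon, where 4.84% of the windows hold one. In the 300 bases nearest the start codon, 4 of the 10 genes had an STRE, against 22.2% of the windows. These were GLG2, GSY2, GLC3 and GDB1, whereas GPH1, with the largest log2 fold change, had none there.

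**Figure D4:**
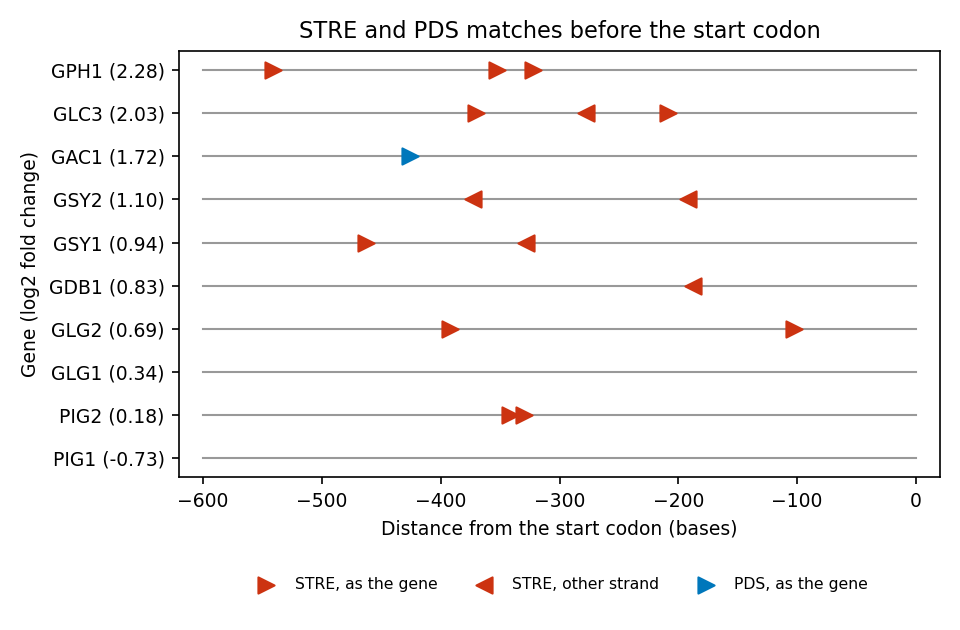
Matches to the STRE (red) and PDS (blue) in the 600 bases before the start codon of each glycogen gene (x axis, distance in bases), with genes ordered by log2 fold change and arrowheads showing the strand. GPH1 and GLC3 at the top have 3 STREs each, GAC1 has 1 PDS match and no STRE, and PIG1 at the bottom has neither.

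Among all mRNA features past the minimum, the 137 with 3 or more STREs had log2 fold changes with a median of 0.32, and 18.2% stood 2-fold higher or more. GPH1 and GLC3 are themselves among these 137. For the 458 with 2 STREs the median was 0.12, and 5.90% stood that high. For the 1598 with 1 STRE these values were 0.03 and 2.13%, and for the 3351 without an STRE they were -0.02 and 0.537%. Neighbouring genes can share such a window, so these are counts of features and not of independent promoters. A match shows only that the letters are present. Binding was not measured, and whether STREs have a part in any of these differences was not tested.

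The supply of UDP-glucose, the substrate of the synthases, was read beside the 10 genes. PGM2, which encodes the stress-responsive phosphoglucomutase, had 902 WT counts and 2522 cdc55Δ counts, with a log2 fold change of 1.65 (1.54 to 1.76). Its isozyme gene PGM1 had 3972 and 3816 counts, a log2 fold change of 0.11 (0.05 to 0.18), and UGP1, for UDP-glucose pyrophosphorylase, had 8169 and 12553, a log2 fold change of 0.79 (0.75 to 0.83). SGA1, which encodes a glucoamylase known from sporulation, had 110 and 274 counts, 2.79-fold higher, a log2 fold change of 1.48 (1.16 to 1.82). IGD1, whose product inhibits Gdb1p, had 27 and 52 counts, a log2 fold change of 1.10 (0.42 to 1.84), and did not reach the minimum of 50 normalized counts. GIP2, a relative of PIG2 with 42.4% of 469 aligned residues shared, had 148 and 194 counts, a log2 fold change of 0.56 (0.24 to 0.88).

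These 6 belong to a list of 20 other genes of glycogen metabolism and its control, of which 19 passed the minimum. PGM2 and SGA1 were higher by at least 2-fold and none was lower by that much, beside 1.87% and 1.05% of the mRNA features past the minimum. The median log2 fold change of these 19 was 0.21. GLC7, for the phosphatase itself, had 8397 WT counts and 8459 cdc55Δ counts, with a log2 fold change of 0.18 (0.14 to 0.22). Pho85p with the cyclins Pcl8p and Pcl10p phosphorylates glycogen synthase. PHO85 had a log2 fold change of 0.16 (0.06 to 0.27), PCL8 one of 0.49 (0.36 to 0.63) and PCL10 one of -0.12 (-0.27 to 0.02). Of 9 genes for Glc7p targeting subunits that act elsewhere, such as REG1 in glucose repression, none was at least 1.5-fold apart. Of the mRNA features past the minimum, 5.06% were higher and 2.69% lower by that much, so that a count of 0 among so few genes singles out nothing. Their log2 fold changes ran from -0.17 for BNI4 to 0.34 for GIP1, with a median of 0.08.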

How the data were processed

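Total RNA was depleted of rRNA and made into 1 directional library per strain, read from both ends. After demultiplexing with Cutadapt and mapping to S288C with hisat2 2.2.1, the authors deposited counts per annotated transcript. featureCounts is listed in the submitters' processing notes. The strand setting and the handling of reads with several sites were not given in the sources used here. The authors also deposited RPKM values, which scale each count by the listed length and by the library total over all features, and TPM values, of which only the sum was checked.

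From the counts, libraries were scaled by TMM (edgeR 4.0.16, R 4.3.3). Fold changes and intervals were computed in Python 3.11.15 with SciPy 1.17.1 and tested on simulated data. The simulated counts were Poisson draws without variation between cultures, so that test covers counting error only. edgeR's quasi-likelihood test cannot be fitted to 1 library per strain, and no p-value is given. Intervals of a ratio between genes are normal approximations on the log scale. The study's iterated DEGES scaling, other scalings, count minimums, folds and a prior count of 5 were tried. Of 5995 mRNA features, 5980 matched R64 by accession. None of the 10 genes overlaps another annotated gene or has a 100-base stretch found elsewhere in R64. Proteins were aligned globally with Biopython 1.88.

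The 10 genes and both lists were chosen with earlier results of these data known. All 10 are named, with PGM1, PGM2, UGP1, GIP2, IGD1, CDC55 and each listed gene at least 2-fold apart. GLC7, PHO85, PCL8, PCL10, BNI4, GIP1 and the ratios between genes were added after values were seen.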

Additional observations from a re-analysis of the deposited data

How the results depend on the processing

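No paired analysis was possible because each strain has 1 library, and for the same reason no library could be left out. Under 6 other scalings and a prior count of 5, each of the 10 genes kept its direction and stayed within its counting interval in all 70 comparisons, and the same 4 genes were at least 2-fold higher. Each scaling moved all log2 fold changes by the same amount, between -0.04 and 0.00 against TMM, so the 70 comparisons are not independent. With a minimum of 200 normalized counts GAC1 dropped out, which left 3 genes at least 2-fold higher. A threshold of 1.5-fold gave 7 higher and 1 lower, against 5.06% and 2.69% of the mRNA features, and one of 3-fold gave 3 higher, without GSY2, and 0 lower, against 0.685% and 0.379%. Without a minimum, 2.27% of the mRNA features were at least 2-fold lower. The shares of GSY2 and GLG1 did not depend on shared sequence, since no stretch occurs elsewhere. Depth limits GAC1 and IGD1 most, with 27 counts each in WT.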

Other observations

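The genes next to the 10 on the chromosome were read for their own change. Of 20 such neighbours, 17 were matched by accession and 16 passed the minimum of 50 normalized counts. None was at least 2-fold apart. Of the mRNA features past the minimum, 1.87% were higher and 1.05% lower by that much, so that a count of 0 among so few genes singles out nothing. Their log2 fold changes ran from -0.30 for MCM5, beside PIG1, to 0.70 for UBC8, beside GLC3, with a median of 0.01. UBC8, which encodes a ubiquitin-conjugating enzyme that acts in the degradation of fructose-1,6-bisphosphatase, had 515 counts in WT and 745 in cdc55Δ. MPC54, a gene of the meiotic spindle pole body beside GAC1, had 108 and 149 counts, a log2 fold change of 0.63. Whether reads run on from one gene into the next was not tested.

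GSY1, AIP5 and IGD1 are adjacent on the minus strand of chromosome VI, an order noticed after the values were seen. GSY1 and IGD1, which both act in glycogen metabolism, had log2 fold changes of 0.94 and 1.10, and AIP5, which encodes an actin-binding protein and lies between them, had 3051 WT counts and 3438 cdc55Δ counts, with a log2 fold change of 0.34 (0.27 to 0.41).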
